A study of Homo sapiens with 28 samples.

Results

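MYC and PVT1 are neighbouring genes, and their RNAs were followed through an experiment in which MDA-MB-453 cells were given inhibitors of the BET family of bromodomain proteins, or degrader versions of those inhibitors. The genes were taken by symbol: 2 of the 16482 genes in the table of all reads and the same 2 of the 13029 genes in the table of T>C reads carried the symbol MYC or PVT1. MDA-MB-453 is a human breast cancer line of luminal type with HER2. The cells were given JQ1-VHL, IBET151-VHL, JQ1, IBET151 or the vehicle DMSO for 3 h. All cultures had 4-thiouridine at 0.1 mM over the final 60 min, and RNA of a nuclear and of a cytoplasmic fraction was sequenced. JQ1 and IBET151 are BET bromodomain inhibitors, and their VHL versions carry, by their names, a ligand of the ubiquitin ligase subunit VHL that the parent compounds lack. The doses were not in the labels, so none of the compounds is known to have been matched to another in dose. Each fraction had 3 libraries for JQ1-VHL, 3 for IBET151-VHL, 3 for JQ1, 2 for IBET151 and 3 for DMSO, 28 libraries in all.

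MYC encodes a transcription factor that binds DNA as a dimer with MAX and drives growth genes, among them those of ribosome production. Its mRNA and its protein are both short-lived, and its transcription in many tumours depends on distant enhancers that are rich in bromodomain proteins. PVT1 is a long noncoding RNA transcribed from the gene next to MYC, often gained together with MYC in tumours, and much of it stays in the nucleus.

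T>C reads carry T-to-C conversions where 4-thiouridine was built in, so they count RNA made during the labelling time together with an unknown background, since no library without 4-thiouridine was analysed here. Values are ERCC-scaled reads, which are per mass of RNA in a fraction and not per cell, and in such bulk samples fewer cells and less RNA per cell cannot be told apart. Nothing in the labels says whether replicates were separate cultures, so p-values measure the spread between these libraries, which may be technical. Nuclear libraries held 17851589 to 38658448 reads, 1.10% to 8.02% of them T>C reads. Cytoplasmic libraries held 30647584 to 68475299, with a T>C percentage between 0.235% and 0.818%. The 4 nuclear libraries of the first run of library numbers, all of them replicate 1, stood apart: their scaled reads summed to 13857990 to 22303955, against 38469232 to 67900669 in the other 10 nuclear libraries. The luminal markers ERBB2, GATA3, FOXA1, KRT8, KRT18, SPDEF and TFAP2B were present in every library, the lowest at 581 scaled reads for FOXA1. Of the markers of other cell types, COL1A1 was at 1170.3 to 6655 and ALB at 0 to 202, while COL1A2, PTPRC, KRT5 and KRT14 stayed at or under 19.2. The nuclear noncoding RNA MALAT1 lay between 15747 and 65876 in nuclear libraries and between 1181 and 4769 in cytoplasmic ones.

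In cells given DMSO, both RNAs had higher scaled values in the nuclear than in the cytoplasmic fraction, and so had most genes. These values are per mass of RNA in each fraction, so they do not give the amounts in the nucleus and cytoplasm of a cell. MYC had 225, 483 and 959 scaled reads in nuclear replicates 1, 2 and 3, against 70.8, 202 and 239 in the cytoplasmic ones. PVT1 had 5871, 4152 and 5492 in the nuclear libraries, against 669.8, 1019 and 661 in the cytoplasmic ones. MYC was lowest in replicate 1 of both fractions and its fractions overlapped, while every nuclear PVT1 value lay above every cytoplasmic one. The nuclear level of MYC was 3.11-fold the cytoplasmic level (log2 1.64, SE 0.65, limma adjusted p = 0.0347) and that of PVT1 6.66-fold (log2 2.74, SE 0.50, limma adjusted p = 1.9e-05). In this comparison 47.9% of 14458 genes were higher in the nuclear fraction, with a median log2 difference over all genes of 1.26. The MYC call was lost without cytoplasmic replicate 1 (log2 1.10), nuclear replicate 2 (1.62) or nuclear replicate 3 (1.12), and when libraries were scaled by median ratios instead of ERCC RNA (0.50). T>C reads were further to the nuclear side, at log2 differences of 2.82 for MYC (limma adjusted p = 0.000254) and 5.0 for PVT1 (limma adjusted p = 1.43e-10), where 93.6% of 12067 genes were called in that direction and the median was 3.62. With median-ratio scaling the T>C difference of MYC turned to -0.45 and that of PVT1, at 1.71, was no longer called.

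MYC RNA was far lower with both VHL compounds than with DMSO, in both fractions, and no library of a VHL compound reached any library of a parent compound or of DMSO. In the nuclear fraction MYC had 8.04, 32.2 and 35.5 scaled reads with JQ1-VHL and 10.9, 41.5 and 29.1 with IBET151-VHL. With JQ1 it had 53.4, 256 and 392, with IBET151 82.6 and 394, and with DMSO 225, 483 and 959. The means were 25.3 ± 15.0 with JQ1-VHL, 27.2 ± 15.4 with IBET151-VHL, 233 ± 170.1 with JQ1 and 556 ± 372 with DMSO (SD, n = 3 each), and 238 ± 220.3 with IBET151 (SD, n = 2). From low to high the group means ran JQ1-VHL, IBET151-VHL, JQ1, IBET151 and DMSO in both fractions, and the single pair of neighbours in this order whose libraries did not overlap was IBET151-VHL and JQ1.

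Nuclear MYC fell 21.2-fold with JQ1-VHL (log2 change -4.41, SE 0.71, limma adjusted p = 3.29e-05) and 19.1-fold with IBET151-VHL (-4.25, SE 0.71, limma adjusted p = 2.75e-05). Folds are on the log2(value + 1) scale, and a gene passed at an adjusted p under 0.05. Of the 14417 genes tested in the nuclear fraction, 1.07% fell with JQ1-VHL and 3.66% with IBET151-VHL. By size of the decrease MYC was 4th with JQ1-VHL and 17th with IBET151-VHL, where the median log2 changes of all genes were -0.48 and -0.71. With JQ1 the log2 change was -1.42 (95% interval -2.82 to -0.02, limma adjusted p = 0.963), and with IBET151 it was -1.38 (-2.95 to 0.19, limma adjusted p = 1). In these comparisons 0.0486% and 0.00694% of genes fell. Single libraries moved both values: the JQ1 value was -0.57 without JQ1 replicate 1 and -2.00 without JQ1 replicate 3, and the IBET151 value was -0.26 without IBET151 replicate 1 and -2.50 without IBET151 replicate 2. The JQ1 value passed once replicates were paired by number (limma adjusted p = 0.0132). Within the first run of library numbers, where each group has 1 library, MYC lay at log2 -4.65 with JQ1-VHL, -4.25 with IBET151-VHL and -2.06 with JQ1 relative to DMSO. Within the second run the differences were -3.87, -3.51 and -0.92, and -2.53 with IBET151.

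Cytoplasmic MYC had 10.7, 6.34 and 4.46 scaled reads with JQ1-VHL and 7.40, 9.51 and 13.1 with IBET151-VHL. It had 82.6, 50 and 82.2 with JQ1, 44.7 and 113 with IBET151, and 70.8, 202 and 239 with DMSO. The low DMSO value, that of replicate 1, lay inside the range of both parent compounds. The cytoplasmic means were 7.18 ± 3.22 with JQ1-VHL, 10.0 ± 2.90 with IBET151-VHL, 71.6 ± 18.7 with JQ1 and 171 ± 88.3 with DMSO (SD, n = 3 each), and 78.8 ± 48.3 with IBET151 (SD, n = 2). MYC fell 19.5-fold with JQ1-VHL (log2 change -4.29, SE 0.48, limma adjusted p = 5.33e-05), the 2nd largest decrease of 12470 genes, of which 12.5% fell. It fell 14.1-fold with IBET151-VHL (-3.82, SE 0.48, limma adjusted p = 6.51e-05), the 12th largest, where 15.4% of genes fell. The values for JQ1 (-1.10, limma adjusted p = 0.273, 4.0% of genes fell) and IBET151 (-1.07, limma adjusted p = 0.439, 1.62% fell) missed the threshold. On leaving out each library in turn they ran over -1.64 to -0.77 with JQ1 and -1.73 to -0.41 with IBET151. All of these counts rest on few reads in the VHL libraries: nuclear MYC had 12 to 24 reads in each and cytoplasmic MYC 6 to 22.

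**Figure D1:**
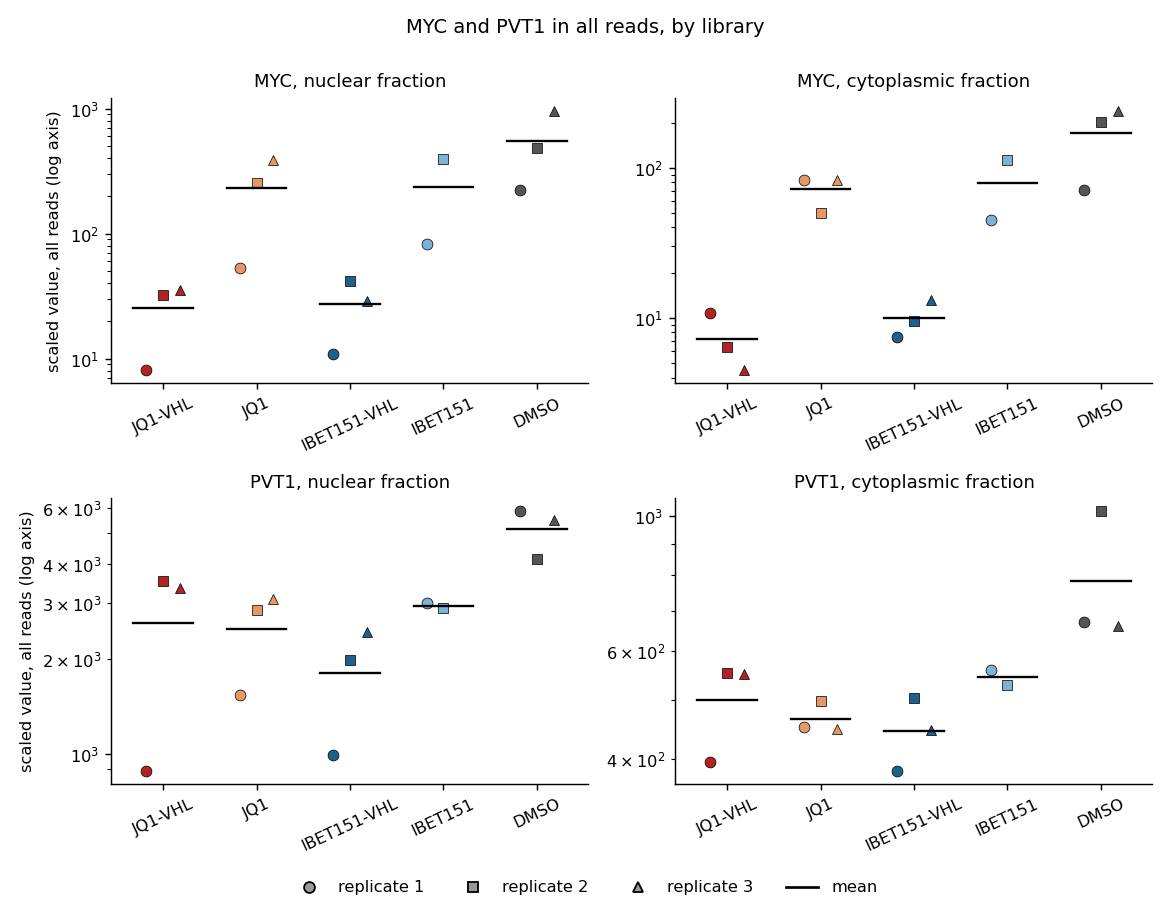
All reads of MYC and of PVT1 in every library, as ERCC-scaled reads on a log axis, by compound and fraction, with a marker shape per replicate and a bar at each group mean. MYC sits between 4.46 and 41.5 in the 12 libraries of the VHL compounds and at 44.7 or above in the others, while PVT1 with any compound lies below every DMSO library of its fraction.

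Set against their parents, both VHL compounds left less MYC. In the cytoplasm JQ1-VHL differed from JQ1 by a log2 change of -3.19 (95% interval -4.22 to -2.16, limma adjusted p = 0.00106) and IBET151-VHL from IBET151 by -2.75 (-3.90 to -1.59, limma adjusted p = 0.00457), in comparisons that called 4.18% and 7.87% of genes lower. The second of these was lost without cytoplasmic IBET151 replicate 2 (-2.09). In the nucleus JQ1-VHL differed from JQ1 by -2.99 (-4.39 to -1.59, limma adjusted p = 0.0277), with 0.166% of genes called lower. That call was lost without JQ1-VHL replicate 1 (-2.34), JQ1-VHL replicate 3 (-3.35), JQ1 replicate 2 (-2.72) or JQ1 replicate 3 (-2.41), and without the first run (-3.19, limma adjusted p = 0.0577). Nuclear IBET151-VHL against IBET151 gave -2.88 (-4.44 to -1.31, limma adjusted p = 0.0695), short of the threshold, with 0.506% of genes called lower. No difference in MYC was called between compounds of one kind, though the intervals are wide. JQ1-VHL minus IBET151-VHL was -0.16 in the nucleus (-1.56 to 1.25) and -0.47 in the cytoplasm (-1.50 to 0.56), and JQ1 minus IBET151 was -0.04 (-1.61 to 1.52) and -0.03 (-1.18 to 1.12). Over all genes these comparisons called 0.0%, 0.016%, 0.0% and 0.0%, in the same order, at an adjusted p under 0.05. Of these 4 pairs of compounds in 2 fractions, p-values were adjusted over all genes of each comparison. The drug effects on MYC were not called different between the fractions either: the nuclear minus the cytoplasmic effect was -0.12 for JQ1-VHL (-1.98 to 1.73), -0.43 for IBET151-VHL (-2.29 to 1.42), -0.32 for JQ1 (-2.18 to 1.54) and -0.30 for IBET151 (-2.38 to 1.77). Over all genes 0.0% were called for JQ1-VHL, 0.00692% for IBET151-VHL, 0.0% for JQ1 and 0.0% for IBET151 in that test.

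PVT1 RNA was lower with every compound than with DMSO in every library, by a far smaller factor than MYC with the VHL compounds. JQ1-VHL overlapped JQ1 in both fractions, while IBET151-VHL lay below IBET151 in both. Nuclear PVT1 had 885, 3531 and 3363 scaled reads with JQ1-VHL and 994, 1991 and 2427 with IBET151-VHL. It had 1538, 2861 and 3092 with JQ1, 2999 and 2907 with IBET151, and 5871, 4152 and 5492 with DMSO. The lowest nuclear libraries of JQ1-VHL, IBET151-VHL and JQ1 were those of the first run, while the DMSO library of that run was the highest of its group. In the cytoplasm PVT1 had 395, 554 and 552 scaled reads with JQ1-VHL, 382, 503 and 446 with IBET151-VHL, 451, 498 and 447 with JQ1, and 559 and 528 with IBET151. The DMSO libraries had 669.8, 1019 and 661. All 4 compounds overlapped one another in this fraction, apart from IBET151, whose 528 lay above every JQ1 and IBET151-VHL library.

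The fitted nuclear log2 changes of PVT1 were -1.22 with JQ1-VHL (95% interval -2.71 to 0.26, limma adjusted p = 0.662), -1.60 with IBET151-VHL (-3.09 to -0.11, limma adjusted p = 0.241), -1.10 with JQ1 (-2.59 to 0.39, limma adjusted p = 0.963) and -0.79 with IBET151 (-2.46 to 0.87, limma adjusted p = 1), and none passed. With replicates paired by number, the values for JQ1-VHL (limma adjusted p = 0.000622), IBET151-VHL (1.61e-06) and JQ1 (0.00604) did pass. Replicate 3 of the VHL compounds came from another run of library numbers than that of DMSO. For these compounds, here and below, pairing by number is therefore an assumption. Within the first run nuclear PVT1 lay at log2 -2.73 with JQ1-VHL, -2.56 with IBET151-VHL and -1.93 with JQ1 relative to DMSO, and within the second run at -0.23, -1.06 and -0.54. Without the first run the IBET151-VHL value passed, at -1.12 (limma adjusted p = 0.00945).

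Cytoplasmic PVT1 averaged 500.1 ± 91.1 scaled reads with JQ1-VHL, 444 ± 60.6 with IBET151-VHL, 465 ± 28.1 with JQ1 and 783 ± 204 with DMSO (SD, n = 3 each), and 544 ± 21.8 with IBET151 (SD, n = 2). It fell 1.74-fold with IBET151-VHL (log2 change -0.80, SE 0.20, limma adjusted p = 0.0134). That call was lost without IBET151-VHL replicate 1 (-0.69), without DMSO replicate 2 (-0.59), without the first run (-0.79, limma adjusted p = 0.0591) and in 2 other settings. The values for JQ1-VHL (-0.63, limma adjusted p = 0.0562), JQ1 (-0.72, limma adjusted p = 0.0578) and IBET151 (-0.50, limma adjusted p = 0.383) did not pass. With replicates paired by number, those for JQ1-VHL (0.024) and JQ1 (0.0229) did. In rank of decrease in the cytoplasm, 18.3% of genes changed as far down or further with JQ1-VHL, 15.5% with IBET151-VHL, 8.66% with JQ1 and 13.0% with IBET151.

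No difference in PVT1 was called between a VHL compound and its parent. In the cytoplasm JQ1-VHL minus JQ1 was 0.09 (95% interval -0.35 to 0.52) and IBET151-VHL minus IBET151 was -0.30 (-0.79 to 0.19). In the nucleus the values were -0.12 (-1.61 to 1.36) and -0.81 (-2.47 to 0.86). JQ1-VHL minus IBET151-VHL was 0.38 in the nucleus (-1.11 to 1.86) and 0.16 in the cytoplasm (-0.27 to 0.60), and JQ1 minus IBET151 was -0.31 (-1.97 to 1.36) and -0.23 (-0.71 to 0.26). The nuclear and cytoplasmic effects on PVT1 differed by -0.80 to -0.30 over the 4 compounds, and none of these differences passed.

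**Figure D2:**
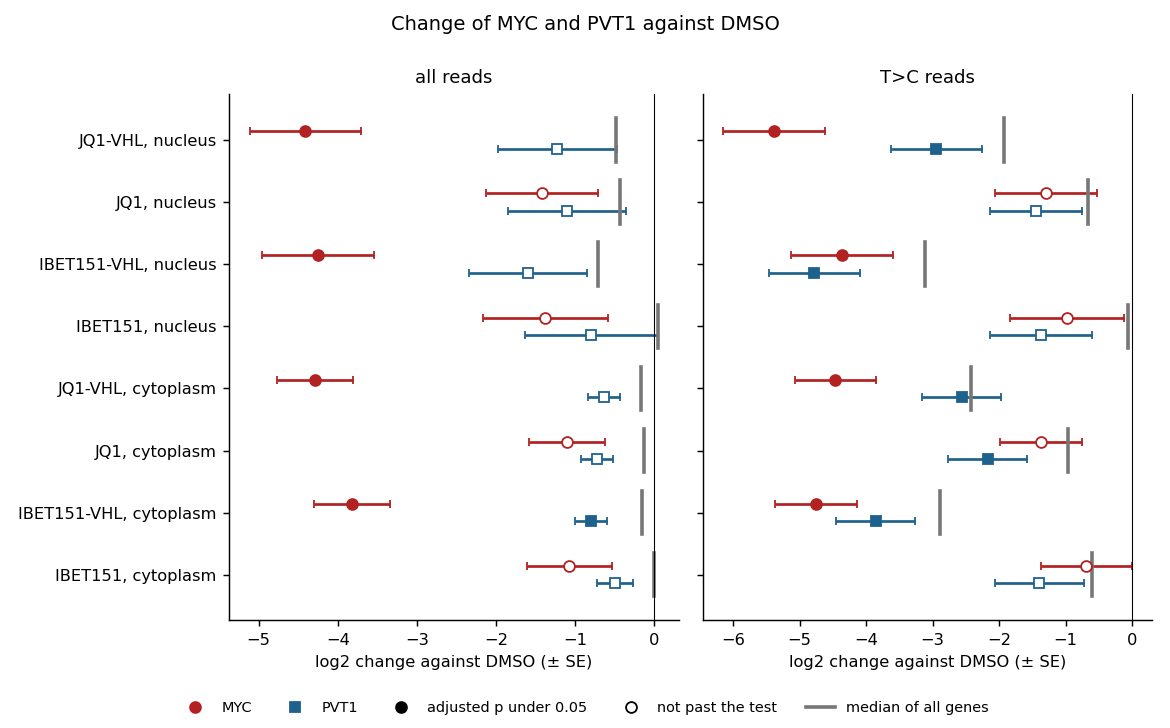
Log2 changes of MYC and PVT1 against DMSO for each compound, fraction and table, with bars of the standard error (SE) of the linear model and the median change of all genes. For MYC in all reads the VHL compounds lie between -4.41 and -3.82 and the parents between -1.42 and -1.07, whereas for PVT1 all 8 values lie between -1.60 and -0.50.

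The unequal change of the 2 neighbours can be read within single libraries. The ratio was taken as log2 of (PVT1 + 1) over (MYC + 1) in scaled reads, so the scaling of a library enters through the added 1, which lowers the ratio where MYC is low. This log2 ratio in nuclear reads was 6.61, 6.73 and 6.52 with JQ1-VHL and 6.39, 5.55 and 6.33 with IBET151-VHL. It was 4.82, 3.48 and 2.98 with JQ1, 5.17 and 2.88 with IBET151, and 4.70, 3.10 and 2.52 with DMSO. Every VHL library lay above every other nuclear library. In the cytoplasm it was 5.08, 6.24 and 6.66 with JQ1-VHL, 5.51, 5.58 and 4.98 with IBET151-VHL, 2.44, 3.29 and 2.43 with JQ1, 3.62 and 2.22 with IBET151, and 3.22, 2.33 and 1.46 with DMSO, again with no overlap between VHL libraries and the rest. VHL compounds exceeded DMSO by 2.92 in the nucleus and 3.34 in the cytoplasm (2-sided exact permutation test, 6 against 3 libraries, p = 0.0119 in each, the smallest this design can give, adjusted p = 0.0286 over 24 tests). They exceeded their parents by 2.47 and 2.86, as the mean of the 2 within-pair differences (2-sided exact permutation test within pairs, 6 against 5 libraries, p = 0.005 in each, the smallest possible, adjusted p = 0.024). Parents and DMSO differed by 0.43 and 0.46 (2-sided exact permutation test, 5 against 3 libraries, p = 0.536 and 0.411).

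Among T>C reads, which hold the RNA made during labelling, MYC was lower with the VHL compounds in both fractions and nearly absent in the cytoplasm. Nuclear T>C reads of MYC were 0.670, 9.47 and 11.1 with JQ1-VHL and 3.88, 20.8 and 15.7 with IBET151-VHL. They were 32.8, 152 and 201 with JQ1, 62.4 and 249 with IBET151, and 117, 290.1 and 448 with DMSO. Cytoplasmic T>C reads of MYC were 1.34, 0 and 0.743 with JQ1-VHL and 0, 0 and 1.19 with IBET151-VHL, which is 3 and 2 reads over each group. They were 11.9, 10.3 and 16.1 with JQ1, 12.4 and 34.6 with IBET151, and 13.7, 48.1 and 59.5 with DMSO. In both fractions every VHL library lay below every library of a parent or of DMSO.

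In T>C reads nuclear MYC fell by a log2 change of -5.38 with JQ1-VHL (SE 0.77, limma adjusted p = 2.28e-09) and -4.36 with IBET151-VHL (SE 0.77, limma adjusted p = 8.26e-08). Here falling was the rule: 60.5% and 83.9% of 12059 genes fell, with medians of -1.92 and -3.12. MYC stood 39th among the decreases with JQ1-VHL and 2318th with IBET151-VHL. The IBET151-VHL call was lost with median-ratio scaling (-1.48). Cytoplasmic MYC fell by -4.46 and -4.76 (SE 0.61 each, limma adjusted p = 9.53e-07 and 1.16e-07), where 82.8% and 88.3% of 6300 genes fell and the medians were -2.42 and -2.89. With the parents MYC did not pass, at -1.30 with JQ1 (limma adjusted p = 0.433, 2.29% of genes fell) and -0.98 with IBET151 (limma adjusted p = 1, 0.987% fell) in the nucleus. In the cytoplasm the values were -1.38 with JQ1 (limma adjusted p = 0.1, 20.1% fell) and -0.69 with IBET151 (limma adjusted p = 0.596, 6.76% fell). Fits to cytoplasmic values this near 0 depend on the added 1, and their folds are no bounds.

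VHL compounds were below their parents in T>C reads of MYC in all 4 comparisons. The log2 differences were -4.09 for JQ1-VHL minus JQ1 (limma adjusted p = 0.000175, 13.0% of genes lower) and -3.38 for IBET151-VHL minus IBET151 (limma adjusted p = 0.000229, 81.4% lower) in the nucleus. In the cytoplasm they were -3.09 (limma adjusted p = 0.00031, 46.5% lower) and -4.07 (limma adjusted p = 1.53e-05, 69.1% lower). The medians of all genes in these 4 comparisons, in the same order, were -1.17, -3.01, -1.39 and -2.25. As far down as MYC or further were 0.149%, 36.5%, 3.84% and 4.86% of genes, so in the nuclear IBET151 pair MYC lay near the typical gene. The nuclear IBET151 pair lost its call without IBET151 replicate 2 (-2.39, limma adjusted p = 0.0508) and with median-ratio scaling (-0.50), and the cytoplasmic JQ1 pair with that scaling (-2.06). JQ1-VHL minus IBET151-VHL was -1.02 in the nucleus (95% interval -2.52 to 0.48) against a median of 1.12 over all genes, and did not pass, in a comparison that called 11.0% of genes. No other difference in T>C reads of MYC between compounds of one kind passed either. Over all genes 3.05% were called between the VHL compounds in the cytoplasm and 0.0% between JQ1 and IBET151 in either fraction.

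**Figure D3:**
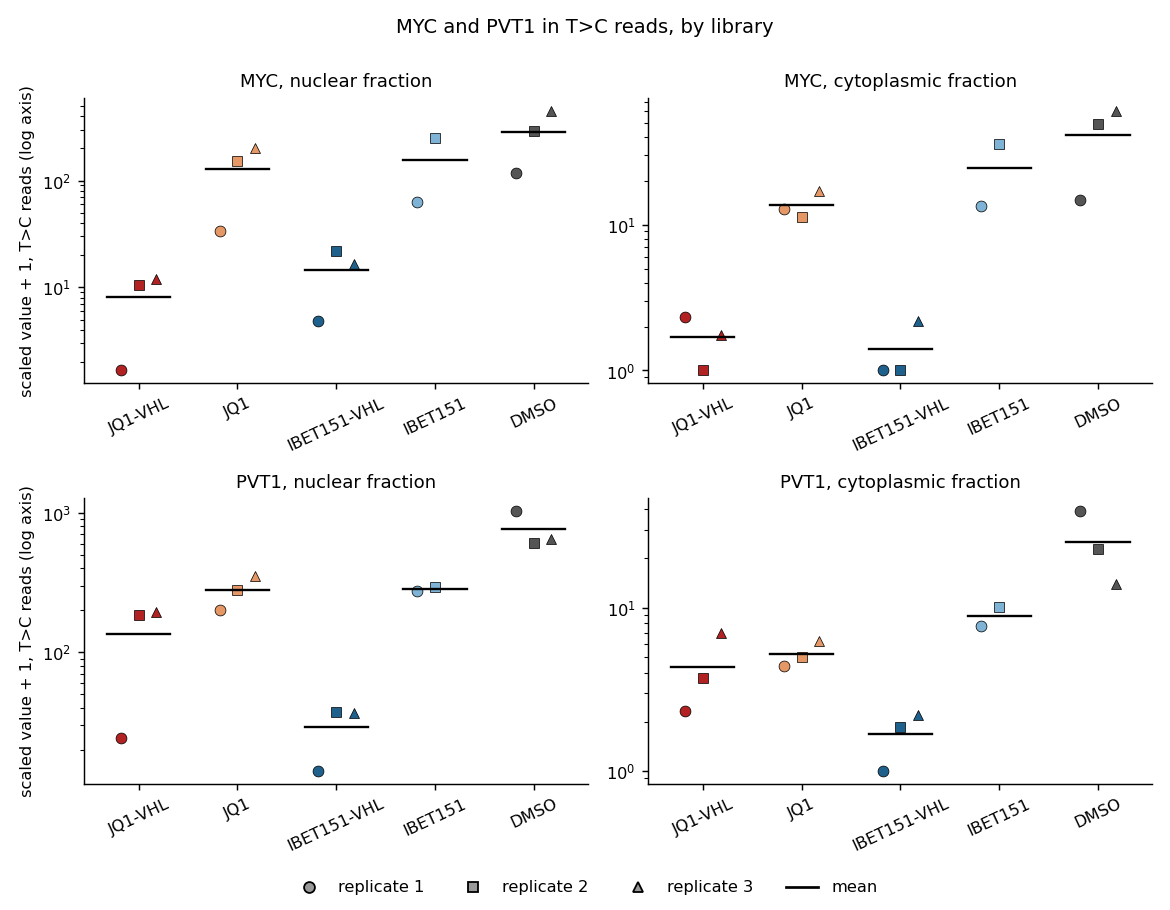
T>C reads of MYC and of PVT1 in every library, drawn as ERCC-scaled reads plus 1 on a log axis, by compound and fraction, with a marker shape per replicate and a bar at each group mean. Values named here are without the added 1. Cytoplasmic MYC lies at or under 1.34 in all 6 VHL libraries, and nuclear PVT1 with IBET151-VHL at 13.2 to 36.3 against 610.3 to 1022 with DMSO.

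T>C reads of PVT1 decreased with the VHL compounds, as did those of most genes. Nuclear T>C reads of PVT1 were 23.4, 186 and 193 with JQ1-VHL and 13.2, 36.3 and 35.8 with IBET151-VHL. They were 201, 280.0 and 349.8 with JQ1, 276 and 295 with IBET151, and 1022, 610.3 and 645 with DMSO. No group overlapped another, except JQ1 with IBET151 and JQ1-VHL with IBET151-VHL, through the JQ1-VHL library of the first run. PVT1 fell by -2.94 with JQ1-VHL (SE 0.68, limma adjusted p = 0.000229) and by -4.78 with IBET151-VHL (SE 0.68, limma adjusted p = 9.1e-11). The medians of all genes were -1.92 and -3.12, and 17.9% and 12.1% of genes changed as far down as PVT1 or further, against 11.5% and 11.5% in nuclear all reads. The parents gave -1.45 and -1.37, which did not pass (limma adjusted p = 0.303 and 0.708). IBET151-VHL was below IBET151 by -3.41 (limma adjusted p = 4.29e-05), while JQ1-VHL minus JQ1 was -1.50 (limma adjusted p = 0.108). The medians of all genes in these pairs were -3.01 and -1.17, and 81.4% and 13.0% of genes were called lower. PVT1 thus lay near the typical gene, with 35.4% and 34.9% of genes as far down or further. JQ1-VHL left more nuclear T>C PVT1 than IBET151-VHL, by 1.84 (95% interval 0.49 to 3.18), against a median of 1.12 over all genes. Its limma adjusted p of 0.059 was short of the threshold. Without the first run that difference was 2.36 (limma adjusted p = 0.0083). With median-ratio scaling the JQ1-VHL decrease (-1.20) and the IBET151 pair (-0.44) were no longer called.

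Cytoplasmic T>C reads of PVT1 were 1.34, 2.72 and 5.94 with JQ1-VHL and 0, 0.864 and 1.19 with IBET151-VHL. They were 3.41, 3.97 and 5.23 with JQ1, 6.66 and 9.11 with IBET151, and 37.8, 22.0 and 12.9 with DMSO, all above the compounds. PVT1 fell by -2.56 with JQ1-VHL (limma adjusted p = 0.000383), -3.86 with IBET151-VHL (limma adjusted p = 1.65e-06) and -2.17 with JQ1 (limma adjusted p = 0.0132). The medians of all genes were -2.42, -2.89 and -0.97, and 44.6%, 20.4% and 9.54% of genes changed as far down or further. The JQ1 call was lost without DMSO replicate 1 (-1.80), without the first run (-1.68) and with median-ratio scaling (-1.42), as was that of JQ1-VHL with this scaling (-0.65). With IBET151 the value was -1.40 (limma adjusted p = 0.205). IBET151-VHL was below IBET151 by -2.46 (limma adjusted p = 0.00215), a call lost with median-ratio scaling (-0.88). JQ1-VHL minus JQ1 was -0.39 (95% interval -1.60 to 0.82). The medians of all genes in these pairs were -2.25 and -1.39, and 69.1% and 46.5% of genes were called lower. The nuclear minus the cytoplasmic effect in T>C reads passed for neither gene with any compound, the 8 differences lying between -0.92 and 0.72. Over all genes this test called 5.68% for JQ1-VHL, 25.3% for IBET151-VHL, 0.191% for JQ1 and 0.0994% for IBET151.

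The T>C share, the percent of a gene's reads that were T>C reads, needs no scaling between libraries, because both counts come from 1 library. It is not corrected for the T>C share of the whole library. In nuclear libraries that share was 8.02%, 6.34% and 2.25% with DMSO and 6.67%, 5.69% and 1.94% with JQ1. It was 5.57% and 3.64% with IBET151, 1.92%, 2.36% and 2.41% with JQ1-VHL and 1.72%, 1.33% and 1.10% with IBET151-VHL. Replicate 3 of DMSO and of JQ1 thus lay near the JQ1-VHL libraries. The nuclear share of MYC was 8.33%, 29.4% and 31.2% with JQ1-VHL and 35.7%, 50% and 53.8% with IBET151-VHL. It was 61.4%, 59.4% and 51.2% with JQ1, 75.6% and 63.1% with IBET151, and 51.9%, 60.1% and 46.7% with DMSO. These VHL shares come from 12 to 24 reads each, so the exact 95% interval of the JQ1-VHL replicate 1 share runs from 0.211% to 38.5% and that of IBET151-VHL replicate 3 from 25.1% to 80.8%. Intervals cover counting error only. JQ1-VHL lay below JQ1 and IBET151-VHL below IBET151 with no overlap within either pair. The nuclear share averaged 23.0% ± 12.7 with JQ1-VHL, 46.5% ± 9.55 with IBET151-VHL, 57.3% ± 5.39 with JQ1 and 52.9% ± 6.74 with DMSO (SD, n = 3 each), and 69.4% ± 8.82 with IBET151 (SD, n = 2). VHL compounds differed from their parents by -28.6 percentage points (2-sided exact permutation test within pairs, p = 0.005, the smallest possible, adjusted p = 0.024). Their difference from DMSO was -18.1 points (exact permutation p = 0.107), and that of the parents from DMSO 9.27 points (exact permutation p = 0.196).

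In the cytoplasm the MYC share was 12.5%, 0% and 16.7% with JQ1-VHL, 0%, 0% and 9.09% with IBET151-VHL, 14.4%, 20.6% and 19.5% with JQ1, 27.7% and 30.6% with IBET151, and 19.3%, 23.8% and 24.9% with DMSO. A share of 0 among 11 reads, as in IBET151-VHL replicates 1 and 2, allows up to 28.5% by the exact interval. VHL compounds differed from their parents by -17.3 points (2-sided exact permutation test within pairs, p = 0.01, adjusted p = 0.0286) and from DMSO by -16.3 points (2-sided exact permutation test, p = 0.0238, adjusted p = 0.044). Parents and DMSO differed by -0.103 points (exact permutation p = 0.982).

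The mean PVT1 share was lower than that of MYC in every group. In the nucleus it was 2.65%, 5.26% and 5.75% with JQ1-VHL, 1.33%, 1.82% and 1.48% with IBET151-VHL, 13.1%, 9.79% and 11.3% with JQ1, 9.20% and 10.1% with IBET151, and 17.4%, 14.7% and 11.8% with DMSO. IBET151-VHL lay below JQ1-VHL, and both below every parent and DMSO library. VHL compounds differed from DMSO by -11.6 points (2-sided exact permutation test, p = 0.0119, the smallest possible, adjusted p = 0.0286) and from their parents by -7.49 points (within pairs, exact permutation p = 0.005, adjusted p = 0.024). Parents differed from DMSO by -3.91 points (exact permutation p = 0.0536, adjusted p = 0.0918). Whole nuclear libraries also had lower T>C shares with the VHL compounds, at 1.10% to 2.41% against 2.25% to 8.02% with DMSO. In the cytoplasm the PVT1 share was 0.340%, 0.491% and 1.08% with JQ1-VHL, 0%, 0.172% and 0.268% with IBET151-VHL, 0.755%, 0.797% and 1.17% with JQ1, 1.19% and 1.72% with IBET151, and 5.65%, 2.15% and 1.96% with DMSO. Here the parents too lay below DMSO in every library (difference -2.13 points, exact permutation p = 0.0179, the smallest possible, adjusted p = 0.039). VHL compounds lay below DMSO by a difference of -2.86 points (exact permutation p = 0.0119, adjusted p = 0.0286) and differed from their parents by -0.791 points (within pairs, exact permutation p = 0.02, adjusted p = 0.04). The last of these passed the unadjusted threshold no longer once any 1 library of the IBET151 pair was left out. Whole cytoplasmic libraries had T>C shares of 0.235% to 0.302% with the VHL compounds. With the parents these were 0.526% to 0.655%, and with DMSO 0.747% to 0.818%. Whether the shares of MYC or PVT1 changed beyond those of the whole libraries was not tested.

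**Figure D4:**
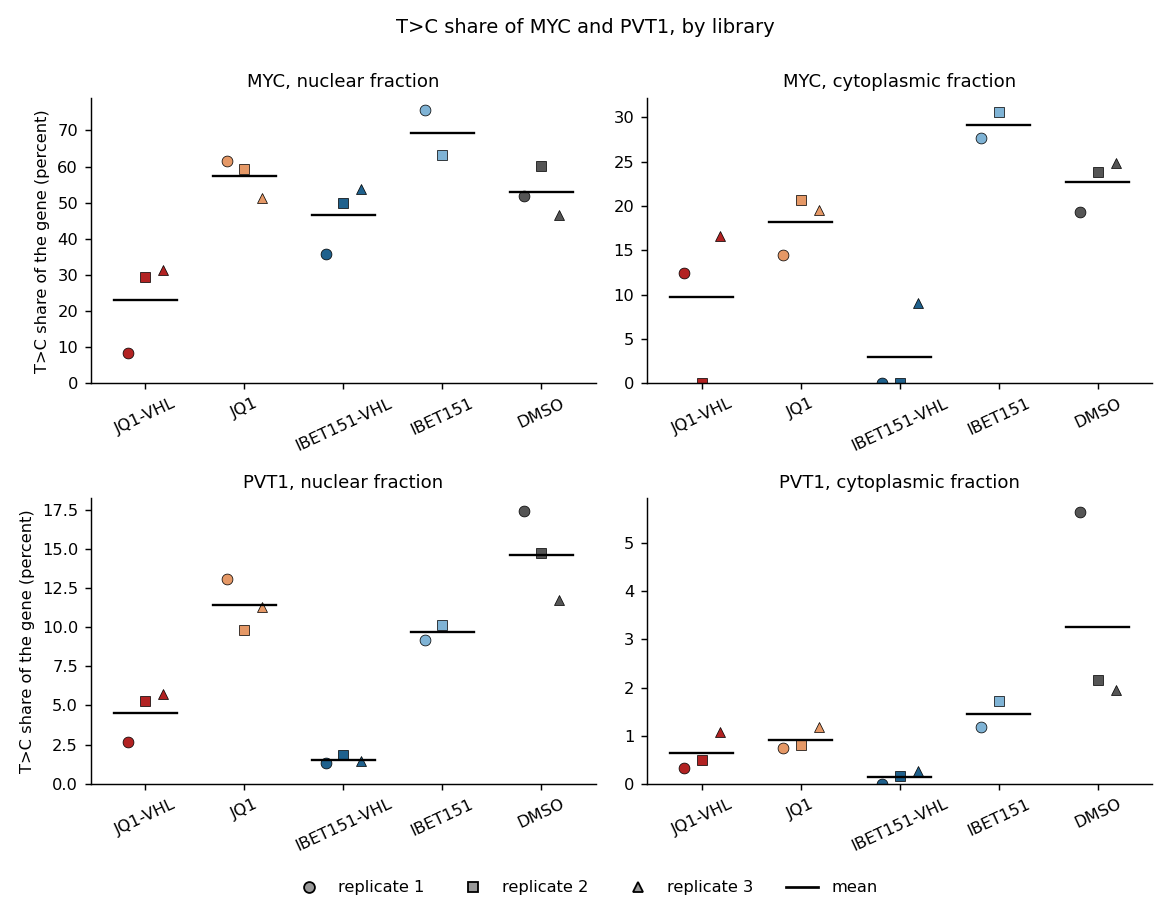
T>C share of MYC and of PVT1 in every library, as a percent of the gene's reads, by compound and fraction, with a marker shape per replicate and a bar at each group mean. Nuclear MYC shares with the parents lie at 51.2% to 75.6% and overlap DMSO, while nuclear PVT1 shares with IBET151-VHL lie at 1.33% to 1.82%, below all other groups.

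The log2 ratio of PVT1 to MYC in nuclear T>C reads did not separate the compounds in the way that the ratio in all reads did. In the nucleus it was 3.87, 4.16 and 4.00 with JQ1-VHL, but 1.54, 0.78 and 1.14 with IBET151-VHL, inside the range of 0.53 to 3.12 seen with DMSO. VHL compounds minus DMSO gave 1.01 (exact permutation p = 0.333) and VHL compounds minus parents 1.28 (within pairs, exact permutation p = 0.09). In the cytoplasm, with MYC at or under 1.34 in the VHL libraries, the added 1 sets the ratio. VHL compounds minus parents gave 2.15 there (within pairs, exact permutation p = 0.005, the smallest possible, adjusted p = 0.024). VHL compounds minus DMSO gave 1.40 (exact permutation p = 0.179) and parents minus DMSO -0.76 (exact permutation p = 0.464). Values this near 0 cannot show how the 2 genes differ, so no conclusion is drawn.

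The genes whose pattern lay nearest to that of MYC were MAMSTR, SPRY1, PLK2, ZNF792 and OTX1. Likeness was the root mean square difference of the 8 log2 changes against DMSO in all reads, over 11421 genes, and it stands here as a description. MAMSTR, a coactivator of MEF2 factors, differed from MYC by 0.346, with log2 changes of -4.01 (JQ1-VHL) and -4.17 (IBET151-VHL) in the nucleus and -3.90 and -3.28 in the cytoplasm. SPRY1, an inhibitor of receptor tyrosine kinase signalling, differed by 0.550, the kinase gene PLK2 by 0.566, the zinc finger gene ZNF792 by 0.634 and the homeobox gene OTX1 by 0.637, where the median over all genes was 2.82. PVT1 was 1164th in likeness to MYC, at 2.25.

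The genes nearest to PVT1 were PPP4R3A at 0.0828, TUSC1 at 0.0891, EEF1AKMT3 at 0.104, DCTN4 at 0.105 and TET2 at 0.107. PPP4R3A encodes a regulatory subunit of protein phosphatase 4, EEF1AKMT3 a lysine methyltransferase of a translation elongation factor, DCTN4 a dynactin subunit and TET2 an oxidase of methylated cytosine. Their nuclear log2 changes with JQ1-VHL ran from -1.32 to -1.11 and with IBET151-VHL from -1.78 to -1.50, beside -1.22 and -1.60 for PVT1. Against a median of 0.742 over all genes, many genes lay near PVT1, and MYC was 11378th.

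Of MYC's partners and rivals in the MAX network, 10 of 12 listed genes were tested in cytoplasmic reads. With JQ1-VHL 0 rose and 2 fell, with IBET151-VHL 0 rose and 3 fell, with JQ1 1 rose and 0 fell and with IBET151 1 rose and 0 fell. Over all genes tested 0.417%, 0.465%, 0.818% and 0.898% rose with these compounds in this order, and 12.5%, 15.4%, 4.0% and 1.62% fell. The medians were -0.44, -0.50, 0.05 and 0.10, against -0.17, -0.15, -0.13 and 0.00 over all genes. MAX, the obligate partner, had 4257 ± 332 scaled reads with JQ1-VHL, 4131 ± 364 with IBET151-VHL, 5490.3 ± 666 with JQ1 and 5137 ± 227 with DMSO (SD, n = 3 each), and 6076 ± 788 with IBET151 (SD, n = 2). It passed with none. MXD1, a repressor that competes with MYC for MAX, had 196 to 241 scaled reads with JQ1-VHL and 144 to 180.2 with IBET151-VHL, but 671 to 799.8 with JQ1 and 795 to 882 with IBET151, against 335 to 394 with DMSO, with no overlap among VHL compounds, parents and DMSO. In the cytoplasm it fell with JQ1-VHL (log2 change -0.75, limma adjusted p = 0.00779) and IBET151-VHL (-1.18, limma adjusted p = 0.000177). It rose there with JQ1 (1.04, limma adjusted p = 0.00269) and IBET151 (1.21, limma adjusted p = 0.00344). The IBET151 call was lost without IBET151 replicate 2 (1.14), and those of JQ1-VHL and JQ1 without the first run (-0.70 and 0.97). Mean nuclear MXD1 was not lower with the VHL compounds, at 1109 ± 509 with JQ1-VHL, 1082 ± 409 with IBET151-VHL and 963 ± 212 with DMSO (SD, n = 3 each). MYCN, the paralog of MYC, was scarce. In the cytoplasm it had 0 to 0.743 scaled reads with JQ1-VHL and 0 in all 3 libraries with IBET151-VHL, against 5.17 to 30.4 with DMSO. It passed there as lower with both VHL compounds (limma adjusted p = 0.00748 and 0.00311). MGA, a MAX partner of the repressive side, fell with IBET151-VHL (-1.37, limma adjusted p = 0.00429), and its nuclear value of -1.91 did not pass (limma adjusted p = 0.0818). MNT, MLX, MYCL, MXI1, MXD4 and MLXIP passed with no compound in either fraction. With replicates paired by number, cytoplasmic MNT passed with IBET151-VHL (-0.68, limma adjusted p = 0.0385) and MGA with JQ1-VHL (-0.91, limma adjusted p = 0.0382).

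Genes whose products act on the MYC protein passed only as decreases under the deposited scaling. Of 25 cofactor and turnover genes tested in the cytoplasm, 4 fell with JQ1-VHL, 4 with IBET151-VHL and 0 with either parent, and 0 rose with any compound. Over all genes 12.5%, 15.4%, 4.0% and 1.62% fell, so the counts with the VHL compounds are near the background. The medians were -0.12, -0.20, -0.12 and -0.01. With median-ratio scaling 3 rose and 4 fell with each VHL compound. USP36, a deubiquitinase of nucleolar MYC, fell with JQ1-VHL (-0.88) and IBET151-VHL (-1.11), as did FBXW7, the ubiquitin ligase subunit that targets MYC (-1.02 and -1.03), FBXO32, an F-box protein (-1.54 and -1.43), and the kinase gene PIM3 (-0.80 and -0.81). The FBXW7 calls were lost without DMSO replicate 1 (-0.78) or JQ1-VHL replicate 3 (-0.95) for JQ1-VHL, and without IBET151-VHL replicate 3 (-0.84) for IBET151-VHL. Without the first run USP36 (-0.73) and FBXW7 (-0.84) lost their JQ1-VHL calls, and FBXO32 both its calls (-1.30 with JQ1-VHL and -1.33 with IBET151-VHL), which weights per library also removed (-1.38 and -1.32). TRRAP, a coactivator scaffold, did not pass. With replicates paired by number TRRAP passed with IBET151-VHL (-0.87, limma adjusted p = 0.0297), and FBXW7 (-0.66, limma adjusted p = 0.0132) and FBXO32 (-1.20, limma adjusted p = 0.0166) passed with JQ1.

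Of 13 tested genes for proteins that bind or degrade MYC mRNA or mRNAs like it, 2 fell with JQ1-VHL, 2 with IBET151-VHL, 1 with JQ1 and 1 with IBET151, and 0 rose, where 12.5%, 15.4%, 4.0% and 1.62% of all genes fell, a background near these counts with the VHL compounds. The medians were -0.23, -0.12, -0.21 and -0.12. ZFP36L1, a protein that binds AU-rich mRNA and promotes its decay, had 1305 ± 185 scaled reads with JQ1-VHL, 1047 ± 179 with IBET151-VHL, 2622 ± 662 with JQ1 and 8208 ± 1081 with DMSO (SD, n = 3 each), and 2392 ± 229 with IBET151 (SD, n = 2). It fell with all 4 compounds (-2.65, -2.98, -1.67 and -1.77, limma adjusted p at most 0.00134). Its relative ZFP36L2 fell with the VHL compounds (-1.98 and -1.89), and its values of -0.21 with JQ1 and -0.28 with IBET151 did not pass. KHSRP, AGO2 and CNOT1 passed with none.

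Genes known to be activated by MYC were mostly not called at 3 h. Of 35 tested in the cytoplasm 6 fell with JQ1-VHL, 6 with IBET151-VHL, 2 with JQ1 and 1 with IBET151, and 0 rose, with medians of -0.06, -0.01, -0.02 and 0.07. The counts with the VHL compounds are near the 12.5% and 15.4% of all genes that fell. This direction turned with the scaling: with median-ratio scaling 4 rose and 3 fell with JQ1-VHL, 5 rose and 5 fell with IBET151-VHL, and the medians were 0.16 and 0.21. PPAN, a ribosome biogenesis factor, fell with all 4 compounds (-1.61, -1.91, -1.22 and -1.08). PPRC1, a coactivator related to PGC-1, fell with JQ1-VHL (-1.29), IBET151-VHL (-1.80) and JQ1 (-0.91). The IBET151 call of PPAN was lost without IBET151 replicate 1 (-0.83), and the JQ1 call of PPRC1 without JQ1 replicate 2 (-0.89) or 3 (-0.83). POLR1B, a subunit of RNA polymerase I, fell with JQ1-VHL (-0.71) and IBET151-VHL (-0.72), as did the nucleolar factors WDR43 (-0.62 and -0.80) and MYBBP1A (-1.99 and -2.13). Of these 6 calls, that of WDR43 with IBET151-VHL was the single one that held under every alternative. POLR1B lost its calls without DMSO replicate 2 (-0.56 with JQ1-VHL and -0.57 with IBET151-VHL), without any JQ1-VHL library for JQ1-VHL (-0.73 to -0.67) and without IBET151-VHL replicate 2 for IBET151-VHL (-0.64). WDR43 lost its JQ1-VHL call without replicate 1 or 2 of DMSO or replicate 1 or 3 of JQ1-VHL (-0.57 to -0.53). MYBBP1A lost its JQ1-VHL call without any JQ1-VHL library (-2.35 to -1.67) and its IBET151-VHL call without IBET151-VHL replicate 1 (-2.17) or 2 (-1.67). Of 8 genes known to be repressed by MYC, 0 rose with the VHL compounds, while 2 fell with JQ1-VHL and 3 with IBET151-VHL, where 12.5% and 15.4% of all genes fell. With JQ1 3 rose and with IBET151 2 rose, where 0.818% and 0.898% of all genes rose, and 0 fell. The medians were -0.23, -0.27, 0.62 and 0.74. Without the first run 0 rose with JQ1 and 1 with IBET151. GADD45A, a stress response gene, had 110.0 to 233 scaled reads with JQ1-VHL and 194 to 208 with IBET151-VHL, but 1242 to 1475 with JQ1 and 1183 to 1188 with IBET151, against 517 to 769 with DMSO. It fell with JQ1-VHL (-1.98) and IBET151-VHL (-1.70) and rose with JQ1 (1.02, limma adjusted p = 0.0223). CDKN2B, an inhibitor of cyclin-dependent kinases, rose with JQ1 (1.46) and IBET151 (1.96), and did not pass with JQ1-VHL (-0.81) or IBET151-VHL (0.09). The JQ1 calls of both were lost without the first run (0.78 for GADD45A and 1.35 for CDKN2B), and that of GADD45A also without DMSO replicate 1 (0.85) or any 1 JQ1 library (0.95 to 1.08). The JQ1 call of CDKN2B was lost without JQ1 replicate 1 (1.35) or 2 (1.47), and its IBET151 call without either IBET151 library (1.90 and 2.02). The differentiation factor gene CEBPA fell with JQ1-VHL (-1.02) and IBET151-VHL (-0.90).

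**Figure D5:**
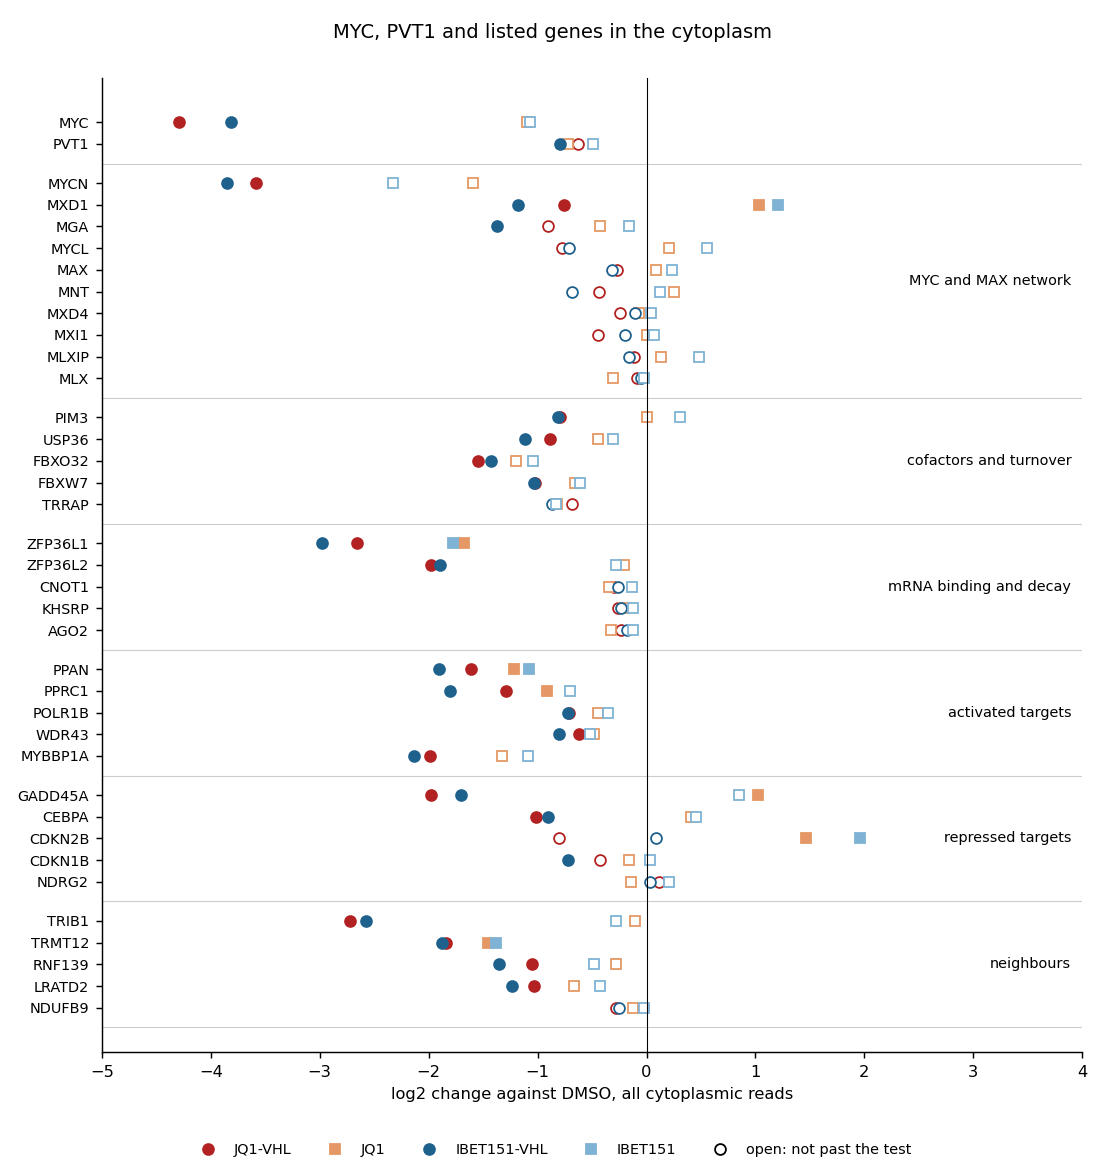
Log2 changes against DMSO in all cytoplasmic reads of MYC, PVT1 and the named genes of the lists, by compound, with marks for those past the limma threshold. MXD1, GADD45A and CDKN2B are the 3 plotted genes above 1 with JQ1, and they lie between -1.98 and 0.09 with the VHL compounds.

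Most other genes of the same chromosome arm around MYC were not called. Of 24 listed neighbours 16 had a row in the tables used here and 15 were tested in cytoplasmic reads, of which 4 fell with JQ1-VHL, 4 with IBET151-VHL, 1 with JQ1 and 1 with IBET151, and 0 rose. Over all genes 12.5%, 15.4%, 4.0% and 1.62% fell. The medians were -0.07, -0.26, -0.14 and -0.02. TRMT12, a tRNA-modifying enzyme gene, had 239 to 352 scaled reads with JQ1-VHL, 199 to 339 with IBET151-VHL, 353 to 412 with JQ1 and 394 to 397 with IBET151, against 869.7 to 1160.0 with DMSO, and fell with all 4 (-1.84, -1.88, -1.46 and -1.38). The IBET151 call was lost without either IBET151 library (-1.39 and -1.38). TRIB1, a pseudokinase gene, had 84.7 to 117 scaled reads with JQ1-VHL and 83.8 to 146 with IBET151-VHL, against 531 to 766 with DMSO, and fell with both (-2.72 and -2.58). With JQ1 (-0.11) and IBET151 (-0.28) it did not pass. LRATD2 (-1.03 and -1.24) and the ubiquitin ligase gene RNF139 (-1.05 and -1.36) fell with JQ1-VHL and IBET151-VHL, and NDUFB9, a subunit of mitochondrial complex I, passed with none.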

How the data were processed

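SLAMseq, in which 4-thiouridine in new RNA is alkylated so that it reads as C, was applied to 28 libraries, grouped by the labels. Per the submitters' processing notes, bcl2fastq, Trimmomatic 0.39, HISAT2, HTSeq and DESeq2 were used, with the builds GRCh37, hg19 and dm3, and how T>C reads were told apart is not given in the sources used here. The authors' deposited signal, ERCC-scaled in both tables, was used unchanged. Both tables list MYC and PVT1 in 1 row each.

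Each library's values were whole multiples of 1 step: 100% lay within 0.001 of a whole read, so reads were recovered. A gene was tested if 2 or more libraries reached 10 (all reads) or 5 (T>C reads). Linear models on log2(value + 1) were fitted in limma 3.58.1 (R 4.3.3) with a variance trend, 1 fit to the 14 libraries of each fraction and 1 to all 28 for differences between fractions. Benjamini-Hochberg adjustment was per comparison over all genes. Shares and ratios had 24 exact permutation tests. Scripts were tested on simulated data.

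The members and lists were chosen with earlier results of these data known, so their counts are descriptions. Named from each list were up to 5 genes with the smallest p for JQ1-VHL against DMSO in cytoplasmic reads, and every tested gene of the MAX network, and 5 genes nearest in pattern per member. Replicate numbers were taken to pair DMSO, JQ1, JQ1-VHL and IBET151-VHL within each fraction in all reads. Every same-numbered pair there correlated above 0.1 in its deviations from group means (lowest 0.159 nuclear, 0.203 cytoplasmic). Deviations within a group cancel out, so the correlation of replicate 3 is not independent of those of the other numbers. It cannot show that number 3 pairs the VHL compounds with DMSO or JQ1. Replicate numbers did not pair IBET151, nor, except nuclear DMSO with JQ1 (0.234), groups in T>C reads. Library numbers fall into 4 runs. IBET151 was missing from the first, and replicate 3 of the VHL compounds came from another run than that of DMSO and JQ1. No 2 libraries of the same group were near-identical, and libraries of different groups were not compared in this way. Alternatives were another pseudocount, filter, scaling, group choice or weighting, a replicate or run block, leaving out each library, edgeR 4.0.16 on the recovered reads and, chosen after seeing the data, leaving out the first run. edgeR called 345 genes for nuclear JQ1-VHL against DMSO in all reads where limma called 284, and 1675 where limma called 1608 in the cytoplasm.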

Additional observations from a re-analysis of the deposited data

How the results depend on the processing

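Of 108 results, 69 kept their direction and side of the threshold under every alternative, among them the decrease of MYC in all reads with both VHL compounds in both fractions. Alternatives other than leaving out a library left 884 values on the same side, gained 50 calls, lost 17 and turned 1. Leaving out a library left 764 alike, gained 11 and lost 17. Of 52 calls of named genes of the lists in the cytoplasm, 30 held under every alternative, 15 were lost on leaving out a library and 0 were reversed. The cause of a changed call was not tested. Values below are log2 differences, from DMSO where no other group is named.

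A replicate block was taken to pair JQ1-VHL, IBET151-VHL, JQ1 and DMSO in all reads, which is an assumption for replicate 3 of the VHL compounds. With this block nuclear PVT1 gained calls with JQ1-VHL (-1.22), IBET151-VHL (-1.60) and JQ1 (-1.10), and nuclear MYC with JQ1 (-1.42). Cytoplasmic PVT1 gained calls with JQ1-VHL (-0.63) and JQ1 (-0.72). Where the numbers do not pair the samples, the block gained IBET151-VHL against IBET151 in nuclear all reads of MYC (-3.27) and PVT1 (-1.01), and in nuclear T>C reads of PVT1 JQ1-VHL against JQ1 (-1.50) and against IBET151-VHL (1.84). No other call of MYC or PVT1 changed with the block. Of the named genes of the lists, the block gained MNT and TRRAP with IBET151-VHL, MGA with JQ1-VHL, and FBXW7 and FBXO32 with JQ1 and with IBET151, whose numbers do not pair, in cytoplasmic all reads. With runs of library numbers entered as blocks, calls were gained in nuclear all reads of PVT1 with JQ1-VHL (-1.35), IBET151-VHL (-1.72), JQ1 (-1.10) and IBET151 (-1.26), and of MYC with JQ1 (-1.42), IBET151 (-1.91) and IBET151-VHL against IBET151 (-2.26). They were also gained in cytoplasmic PVT1 with JQ1-VHL (-0.74), JQ1 (-0.72) and IBET151 (-0.73), and in nuclear T>C reads of PVT1 with JQ1 (-1.45), IBET151 (-2.08), JQ1-VHL against JQ1 (-1.78) and against IBET151-VHL (1.84).

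With weights per library, calls were gained in nuclear all reads of PVT1 with IBET151-VHL (-1.05), JQ1 (-0.55) and JQ1-VHL against IBET151-VHL (0.77), and of MYC with JQ1 (-0.93), IBET151 (-1.43) and IBET151-VHL against IBET151 (-2.21). In nuclear T>C reads they were gained for MYC with JQ1 (-1.51) and JQ1 against IBET151 (-1.41), and for PVT1 with JQ1 (-2.12), IBET151 (-1.76) and JQ1-VHL against IBET151-VHL (2.71), while cytoplasmic PVT1 with IBET151-VHL (-0.70) was lost. Without the first run of library numbers, an alternative chosen after seeing the data, nuclear PVT1 gained IBET151-VHL (-1.12) and, in T>C reads, JQ1-VHL against IBET151-VHL (2.36). Lost were nuclear MYC in JQ1-VHL against JQ1 (-3.19), cytoplasmic PVT1 with IBET151-VHL (-0.79) and its T>C reads with JQ1 (-1.68).

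Without a filter, and in fits of only the groups compared, nuclear MYC in JQ1-VHL against JQ1 was lost (-2.99). Those smaller fits also lost cytoplasmic PVT1 with IBET151-VHL (-0.80) and gained nuclear MYC in IBET151-VHL against IBET151 (-2.88) and cytoplasmic T>C MYC with JQ1 (-1.38). A pseudocount of 5 gained nuclear MYC in IBET151-VHL against IBET151 (-2.67), cytoplasmic T>C MYC with JQ1 (-1.18), cytoplasmic T>C PVT1 with IBET151 (-1.10), and for IBET151-VHL the nuclear minus the cytoplasmic effect on T>C PVT1 (-2.29). A filter at 5 times the minimum gained nuclear MYC in IBET151-VHL against IBET151 (-2.88) and nuclear T>C PVT1 in JQ1-VHL against IBET151-VHL (1.84). edgeR gained the same comparisons (-3.16 and 2.25) and cytoplasmic PVT1 with JQ1-VHL (-0.65) and JQ1 (-0.75).

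Median-ratio scaling reversed the T>C MYC difference between nuclear and cytoplasmic DMSO (-0.45). It gained nuclear MYC in IBET151-VHL against IBET151 (-2.08) and lost the DMSO fractions in all reads of MYC (0.50) and T>C reads of PVT1 (1.71). In nuclear T>C reads it lost PVT1 with JQ1-VHL (-1.20), MYC with IBET151-VHL (-1.48), and MYC (-0.50) and PVT1 (-0.44) in IBET151-VHL against IBET151. In cytoplasmic T>C reads it lost PVT1 with JQ1-VHL (-0.65) and JQ1 (-1.42), MYC in JQ1-VHL against JQ1 (-2.06) and PVT1 in IBET151-VHL against IBET151 (-0.88). In all reads this scaling set the typical gene near no change. The median of all genes in nuclear all reads was 0.05 with JQ1-VHL and 0.06 with IBET151-VHL, where it was -0.48 and -0.71 with the deposited scaling. In T>C reads the median stayed below no change under this scaling. It was -0.29 with JQ1-VHL and -0.54 with IBET151-VHL in the nucleus, and -0.86 and -1.23 in the cytoplasm.

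Leaving out each library changed calls over these ranges. In all reads they were -3.84 to -2.34 for nuclear MYC in JQ1-VHL against JQ1, -4.00 to -1.75 in IBET151-VHL against IBET151 (-3.40 to -2.09 in the cytoplasm), and 1.10 to 2.17 for MYC between the DMSO fractions. Cytoplasmic PVT1 ran over -0.74 to -0.43 with JQ1-VHL, -0.90 to -0.59 with IBET151-VHL and -0.83 to -0.52 with JQ1. In T>C reads the ranges were -2.01 to -0.51 for nuclear PVT1 in JQ1-VHL against JQ1, 1.33 to 2.82 against IBET151-VHL, -4.37 to -2.39 for nuclear MYC in IBET151-VHL against IBET151, -2.01 to -0.99 for cytoplasmic MYC with JQ1 and -2.54 to -1.80 for cytoplasmic PVT1 with JQ1. The T>C share of PVT1 ran over -5.35 to -2.52 points for parents against DMSO in the nucleus and -0.925 to -0.658 for VHL compounds against parents in the cytoplasm. The log2 PVT1 to MYC ratio in T>C reads ran over 0.81 to 1.75 against parents in the nucleus and 0.65 to 2.41 against DMSO in the cytoplasm, where the added 1 sets it.

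Counts of genes called against DMSO moved more. In nuclear all reads they were 284 with JQ1-VHL (195 to 6100 over the alternatives), 656 with IBET151-VHL (561 to 8555), 10 with JQ1 (1 to 10973) and 14 with IBET151 (1 to 3214), and with the replicate block 3757, 6630, 1538 and 818. In cytoplasmic all reads they were 1608 (660 to 3336), 1974 (1263 to 3567), 601 (134 to 1606) and 314 (126 to 890). In nuclear T>C reads they were 7444 (1730 to 10153), 10248 (5000 to 10840), 291 (15 to 6360) and 157 (29 to 2186), and in cytoplasmic T>C reads 5226 (1368 to 6100), 5571 (1732 to 6678), 1295 (135 to 2531) and 459 (56 to 1298). The lowest counts with the VHL compounds in nuclear T>C reads, 1730 and 5000, came from median-ratio scaling. Depth limits MYC in the VHL libraries to 6 to 24 reads each.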
